A study of Capra hircus with 29 samples.

Results

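Sugar and monocarboxylate transporters of the goat oocyte were described across 6 groups of oocytes. The members were all genes of the deposited oocyte expression table whose symbol began with SLC2A, SLC5A or SLC16A and a number. The rule found 38 of the 21343 genes, with 37 different symbols: 13 of the SLC2A family, 11 of the SLC5A family and 14 of the SLC16A family. The rule reads the symbol alone. One of the 38, SLC2A4RG, carries the symbol of a transporter as a prefix but encodes a regulator, and its highest value was 0.110 FPKM (a fragment level scaled to gene length and library size).

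These transporters move small fuel molecules across the cell membrane. SLC2A proteins (the GLUT family) let sugars pass down their gradient, most SLC5A proteins (the SGLT family and its relatives) pull a sugar, inositol or another small solute in together with sodium, and several SLC16A proteins (the MCT family) carry lactate and pyruvate together with a proton. In the ovarian follicle the oocyte uses glucose poorly, while the surrounding granulosa and cumulus cells break it down and pass on pyruvate and lactate, so the transporters on the oocyte side are part of this exchange.

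RNA of 29 oocyte samples of the Ji'ning grey goat was analysed. Group names begin with H for the high or L for the low fertility population. The limits of litter size differ between sources: the series description puts them at more than 3 and fewer than 2 kids, whereas the methods include litters of 3 in the high and of 2 in the low population. The next letter gives the follicle size (L large, M medium, S small), and O stands for oocyte. HLO, LLO, HMO, LMO and LSO had 5 samples each and HSO had 4 (replicates 1, 3, 4 and 5). By the methods, oocytes of many goats were pooled by follicle size (the pooling is stated for the high fertility population) and each pool was then divided into samples of a few oocytes. The samples of a group are thus portions of a pool and not separate goats, n counts these portions, and the p-values measure the spread between them, which may be partly technical. The ages of the goats are not given in the sources used here, and the labels give no treatment besides the group. In bulk samples like these, fewer cells of a type and less RNA per cell cannot be told apart.

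The summed FPKM ranged from 222697 in LMO 2, which stood apart, to 490048, and 6646 to 8689 genes passed 0.5 FPKM in a sample. The label of the tissue was checked against 8 oocyte markers such as GDF9, BMP15 and ZP3, whose genes summed to 424 to 9060 FPKM. Of these markers, NOBOX passed 0.5 FPKM in 8 of the 29 samples and DAZL in 21. Of 9 granulosa marker genes found, STAR made most of the sum (4.32 to 39.0 FPKM), AMH was listed at 0 in every sample, and FSHR and LHCGR stayed at or below 0.283 FPKM. INHBA reached 5.21 FPKM and passed 0.5 in 10 samples, and FST reached 1.54 and passed it in 5. INHA reached 0.782 FPKM and CYP11A1 0.517, each passing 0.5 in 1 sample, and CYP19A1 reached 0.244. Leukocyte, erythroid, enterocyte and endothelial markers summed to at most 0.672, 0.464, 0.993 and 1.61 FPKM.

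Only a small part of these transporters was measured above a low level. A gene was tested when it passed 0.5 FPKM in at least 4 of the 29 samples, and 10 of the 38 members (26.3%) did so. The same limit was passed by 145 of the 323 other solute carrier genes (44.9%) and by 9692 of all genes (45.4%). Another 5 members passed 0.5 FPKM in 1 to 3 samples, and 23 passed it in no sample, 6 of which were listed at 0 in every sample.

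**Figure D1:**
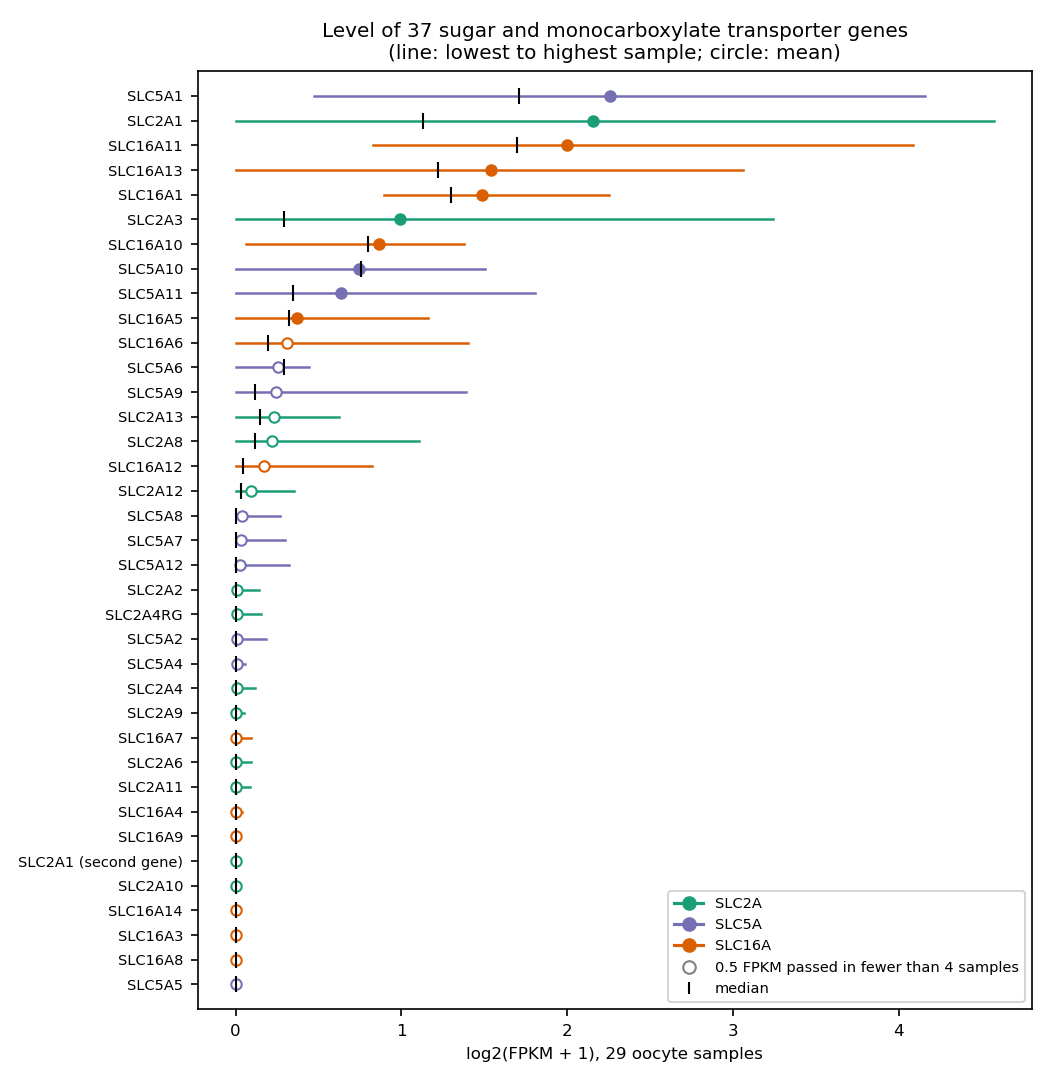
Level of 37 of the 38 members on the scale of log2(FPKM + 1), with a line from the lowest to the highest of the 29 samples, a circle at the log2 value of the mean FPKM and a tick at the median. Filled circles mark the 10 members over 0.5 FPKM in at least 4 samples. SLC5A1, SLC2A1 and SLC16A11 lead, and the lines are long beside the distances between neighbours.

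The plot of levels by member shows the order by mean FPKM. SLC5A1 led with a mean of 3.79 FPKM, followed by SLC2A1 (3.45), SLC16A11 (3.0), SLC16A13 (1.91), SLC16A1 (1.81), SLC2A3 (0.986), SLC16A10 (0.823), SLC5A10 (0.677), SLC5A11 (0.551) and SLC16A5 (0.291). Neighbours in this order were often not separated. SLC5A1 exceeded SLC2A1 in 19 of 29 samples, SLC2A1 exceeded SLC16A11 in 13, SLC16A13 exceeded SLC16A1 in 10, and SLC2A3 exceeded SLC16A10 in 9. The wider steps were from SLC16A11 to SLC16A13 (20 of 29 samples), from SLC16A1 to SLC2A3 (24) and from SLC5A11 to SLC16A5 (22). By sample, the highest member was SLC16A11 in 14 samples, SLC5A1 in 8, SLC2A1 in 6 and SLC2A3 in 1. SLC16A1 and SLC16A11 passed 0.5 FPKM in all 29 samples and SLC5A1 in 28.

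**Figure D2:**
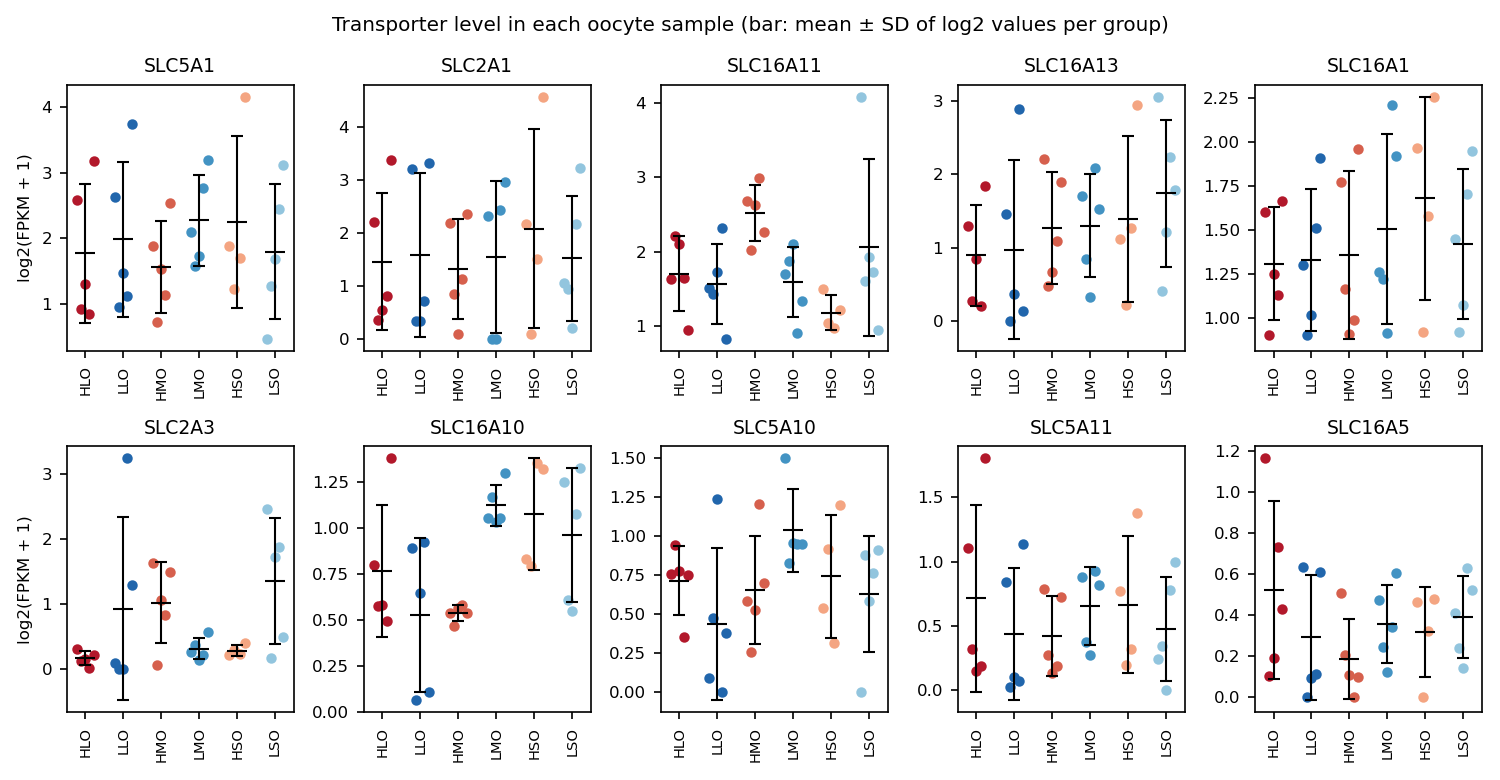
Level of the 10 tested members in each oocyte sample as log2(FPKM + 1), 1 panel per gene with its own axis, points in the order of the replicate numbers within a group, and a bar for the mean and SD of the log2 values (n = 5, and 4 for HSO). The 5 HMO points of SLC16A10 lie below the 5 LMO points, while SLC2A1 and SLC5A1 spread widely inside every group.

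Of the facilitative glucose transporters, 2 of 13 SLC2A genes were tested. SLC2A1 (GLUT1, ENSCHIG00000015523) is the basal glucose carrier of most cells. In the order of the replicates, it was at 3.59, 0.286, 0.448, 0.755 and 9.41 FPKM in HLO and at 8.25, 0.260, 0.262, 0.640 and 9.05 in LLO. It was at 3.56, 0.797, 0.0609, 1.19 and 4.10 FPKM in HMO and at 3.96, 0, 0, 4.41 and 6.82 in LMO. Its small-follicle values were 3.46, 0.0609, 1.82 and 22.8 FPKM in HSO and at 1.09, 0.917, 0.158, 3.48 and 8.38 in LSO. Samples below 0.5 FPKM and samples above 3 FPKM occurred in all 6 groups, and the groups overlapped in each follicle size. A second gene with the symbol SLC2A1 (ENSCHIG00000000575) was listed at 0 in every sample, so how fragments were shared between both is uncertain.

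SLC2A3 (GLUT3, ENSCHIG00000012243), a high-affinity glucose carrier, had a different shape. It was at 0.242, 0.0910, 0.118, 0.0160 and 0.167 FPKM in HLO and at 0.0745, 0, 0, 8.44 and 1.46 in LLO. It was at 2.09, 0.0447, 1.10, 0.789 and 1.81 FPKM in HMO and at 0.206, 0.288, 0.106, 0.168 and 0.480 in LMO. For small follicles it stood at 0.160, 0.225, 0.175 and 0.328 FPKM in HSO and at 4.48, 0.129, 2.30, 2.69 and 0.416 in LSO. HLO, LMO and HSO held no sample above 0.5 FPKM, whereas 4 of 5 HMO, 3 of 5 LSO and 2 of 5 LLO samples did. Within each follicle size the groups still overlapped, since LLO 1, HMO 2 and LSO 2 were low.

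The other SLC2A members were at the floor of the table. SLC2A13, the proton-coupled inositol carrier, reached 0.542 FPKM and passed 0.5 in 2 samples, and SLC2A8 reached 1.16 in 1 sample. SLC2A12 reached 0.278 FPKM, SLC2A2, the low-affinity carrier of liver and pancreas, 0.101, SLC2A4, the insulin-responsive carrier of muscle and fat, 0.0838, SLC2A6 0.0654, SLC2A11 0.0606 and the urate carrier SLC2A9 0.0365. SLC2A10 was listed at 0 in every sample. Genes used by every cell also had copies listed at 0 in this table (of ACTB and GAPDH). Each of these symbols also had a copy with values (6.17 to 51.8 and 5.71 to 931 FPKM). A listed 0 may be a failed estimate, but these copies do not show it for SLC2A10, whose symbol has 1 gene.

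Of the sodium-coupled carriers, 3 of 11 SLC5A genes were tested. SLC5A1 (SGLT1, ENSCHIG00000019977) takes up glucose and galactose in the gut. It was at 5.03, 0.908, 1.46, 0.808 and 8.07 FPKM in HLO and at 5.23, 0.941, 1.79, 1.19 and 12.4 in LLO. It was at 2.70, 0.653, 1.89, 1.19 and 4.80 FPKM in HMO and at 3.30, 1.99, 2.31, 5.78 and 8.17 in LMO. In the small follicles it was at 2.71, 1.34, 2.27 and 16.9 FPKM in HSO and at 0.389, 1.42, 2.22, 4.46 and 7.68 in LSO. The fifth replicate was the highest of its group in all 6 groups, and only LSO 1 lay below 0.5 FPKM. Enterocyte markers summed to at most 0.993 FPKM, with a median of 0.0831. Their highest sums were in HSO 5 (0.993) and LLO 5 (0.462), the same samples that led in SLC5A1, and their part in these values was not tested.

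SLC5A10, a sodium-dependent carrier of mannose and fructose, and SLC5A11 (SMIT2), an inositol carrier, were lower. SLC5A10 (ENSCHIG00000015706) was at 0.688, 0.921, 0.709, 0.273 and 0.684 FPKM in HLO and at 0.0625, 0.386, 1.36, 0 and 0.300 in LLO. It was at 0.497, 0.194, 0.438, 1.31 and 0.623 FPKM in HMO and at 1.83, 0.777, 0.938, 0.928 and 0.932 in LMO. Its small-follicle values were 0.452, 0.887, 0.240 and 1.29 FPKM in HSO and at 0, 0.836, 0.498, 0.700 and 0.878 in LSO. The 5 LMO samples were all above 0.5 FPKM, but HMO 4 lay among them. In the RefSeq annotation of the goat assembly ARS1.2, SLC5A10 overlaps FAM83G, which was listed at 0 in the table, and the use of strand in the counting is not given in the sources used here.

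SLC5A11 (ENSCHIG00000019741) was at 1.16, 0.247, 0.109, 0.138 and 2.49 FPKM in HLO and at 0.787, 0.0177, 0.0761, 0.0531 and 1.2 in LLO. It was at 0.727, 0.207, 0.0994, 0.137 and 0.652 FPKM in HMO and at 0.840, 0.296, 0.210, 0.898 and 0.766 in LMO. For small follicles it stood at 0.711, 0.146, 0.245 and 1.59 FPKM in HSO and at 0.185, 0.272, 0, 0.718 and 0.999 in LSO. As for SLC5A1, the fifth replicate lay above 0.5 FPKM in each group, and the groups overlapped.

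Among the remaining SLC5A members, SLC5A9 reached 1.62 FPKM in LSO 1 and passed 0.5 in 2 samples. The multivitamin carrier SLC5A6 never passed 0.358 FPKM, yet it was above 0 in 27 of 29 samples. The highest values of the others were 0.249 FPKM for SLC5A12 and 0.203 for SLC5A8, which carry lactate with sodium, 0.232 for the choline carrier SLC5A7, 0.137 for the kidney glucose carrier SLC5A2 and 0.0398 for SLC5A4. The iodide carrier SLC5A5 was listed at 0 in every sample.

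Of the monocarboxylate family, 5 of 14 SLC16A genes were tested, the largest share of the 3 families. SLC16A1 (MCT1, ENSCHIG00000016601) is the widespread proton-coupled carrier of lactate and pyruvate. It was at 2.03, 0.866, 1.37, 1.19 and 2.17 FPKM in HLO and at 1.46, 0.864, 1.02, 1.84 and 2.75 in LLO. It was at 2.41, 1.24, 0.876, 0.978 and 2.89 FPKM in HMO and at 1.39, 1.33, 0.882, 3.63 and 2.78 in LMO. In the small follicles it was at 2.91, 0.891, 1.99 and 3.77 FPKM in HSO and at 1.72, 0.892, 1.10, 2.26 and 2.86 in LSO. SLC16A1 had the smallest spread of the 10, with an SD of 48.8% of its mean over the 29 samples, against 180% for SLC2A3 and 139% for SLC2A1.

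SLC16A11 and SLC16A13 (MCT11 and MCT13) are less studied members of the family. SLC16A11 (ENSCHIG00000019140) was at 2.09, 3.65, 3.30, 2.12 and 0.924 FPKM in HLO and at 1.84, 1.70, 2.31, 4.0 and 0.777 in LLO. It was at 5.43, 3.07, 5.16, 6.96 and 3.8 FPKM in HMO and at 2.24, 2.67, 3.31, 0.881 and 1.53 in LMO. Its small-follicle values were 1.82, 1.06, 0.957 and 1.32 FPKM in HSO and at 15.98, 2.04, 2.82, 2.32 and 0.922 in LSO. HMO held high values throughout and met LMO only through HMO 2 and LMO 3, and the LSO mean rested on LSO 1. Without LSO 1 the LSO mean was 2.02 ± 0.802 FPKM (SD, n = 4), against 4.81 ± 6.28 (SD, n = 5) with it.

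SLC16A13 (ENSCHIG00000019049) was at 1.46, 0.210, 0.791, 0.156 and 2.60 FPKM in HLO and at 1.75, 0, 0.295, 6.42 and 0.103 in LLO. It was at 3.62, 0.387, 0.587, 1.12 and 2.73 FPKM in HMO and at 2.27, 0.797, 0.257, 3.26 and 1.89 in LMO. For small follicles it stood at 1.18, 0.167, 1.41 and 6.69 FPKM in HSO and at 7.34, 0.332, 1.33, 3.71 and 2.46 in LSO. High and low samples occurred in each group, and the groups overlapped in each follicle size.

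SLC16A10 (TAT1, ENSCHIG00000023773) belongs to the family by sequence but carries aromatic amino acids. It was at 0.740, 0.489, 0.495, 0.411 and 1.60 FPKM in HLO and at 0.853, 0.0451, 0.562, 0.899 and 0.0778 in LLO. It was at 0.450, 0.381, 0.481, 0.497 and 0.453 FPKM in HMO and at 1.08, 1.24, 1.04, 1.08 and 1.46 in LMO. In the small follicles it was at 0.776, 0.732, 1.56 and 1.5 FPKM in HSO and at 1.38, 0.525, 0.461, 1.11 and 1.51 in LSO. The 5 HMO samples lay together below all 5 LMO samples, while the groups overlapped in large and small follicles. In the RefSeq annotation of ARS1.2, SLC16A10 and SLC2A1 each overlap an uncharacterised locus.

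SLC16A5 (MCT6), the lowest tested member, passed 0.5 FPKM in 6 samples and reached 1.24 in HLO 1. Of the members below the limit, the ketone body carrier SLC16A6 reached 1.64 FPKM in LMO 2, and the creatine carrier SLC16A12 0.768. The high-affinity pyruvate carrier SLC16A7 (MCT2) never passed 0.0658 FPKM, SLC16A4 0.0260 and SLC16A9 0.0208. The lactate exporter SLC16A3 (MCT4), the retinal SLC16A8 and SLC16A14 were listed at 0 in every sample.

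The study asked how oocytes of both fertility populations differ. Averaged over follicle sizes, the mean of the high fertility groups was compared with that of the low fertility groups by limma's moderated test on log2(FPKM + 1). None of the 10 tested members passed an unadjusted p of 0.05, against 9.78% of all genes tested. None passed after Benjamini-Hochberg adjustment, against 0.0103% of all genes. The log2 differences (high minus low fertility) ran from -0.37 for SLC2A3 (SE 0.26, adjusted p = 0.643) to 0.08 for SLC5A11 (SE 0.17, adjusted p = 0.928), which was at -0.19 with array weights (a fit that lets samples count unequally). The median over the members was 0.00, against -0.04 over all genes tested.

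In oocytes of large follicles, HLO did not separate from LLO for any tested member. None passed an unadjusted p of 0.05, against 10.6% of all genes, and none after adjustment with limma, as for all genes (0%). No member's groups were free of overlap, against 0.475% of all genes. The largest log2 difference was -0.76 for SLC2A3 (SE 0.45, adjusted p = 0.539), with means of 0.127 ± 0.0843 FPKM in HLO and 2.0 ± 3.66 in LLO (SD, n = 5 each). This LLO mean rested on LLO 4, without which it was 0.383 ± 0.718 FPKM (SD, n = 4). The standard errors of SLC2A1 (0.81) and SLC5A1 (0.60) were wide. In this fit, a difference of 1 on the log2 scale could not have been separated from the spread for these genes. With the replicate number as a block, their standard errors were 0.38 and 0.36, and their log2 differences -0.13 and -0.22. STAR was at 17.6 to 30.0 FPKM in HLO and 5.11 to 17.3 in LLO, without overlap. The other granulosa markers summed to 0.398 to 3.73 FPKM in HLO and 0.169 to 0.754 in LLO. Their part in this comparison was not tested.

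**Figure D3:**
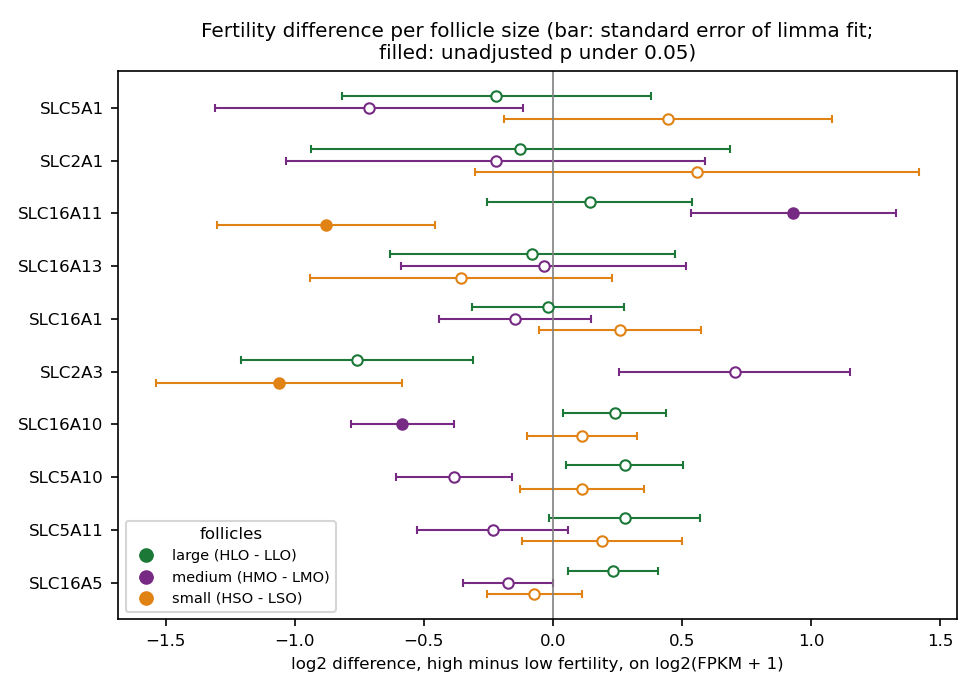
Log2 difference between high and low fertility (high minus low, on log2(FPKM + 1)) for the 10 tested members in large, medium and small follicles, with the standard error of the limma fit. Filled points have an unadjusted p under 0.05: SLC16A11 and SLC16A10 in medium and SLC2A3 and SLC16A11 in small follicles, with SLC16A11 on opposite sides of 0.

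In oocytes of medium follicles, SLC16A10 was lower and SLC16A11 higher in HMO than in LMO, as the plot of fertility differences shows, but neither passed after adjustment. By limma, 2 of 10 members passed an unadjusted p of 0.05, against 7.69% of all genes, and 0 passed after adjustment, against 0.031%. SLC16A10 had means of 0.453 ± 0.0444 FPKM in HMO and 1.18 ± 0.174 in LMO (SD, n = 5 each), a log2 difference of -0.58 (SE 0.20, unadjusted p = 0.00683, adjusted p = 0.390 by limma). It was the only member whose groups did not overlap, as was the case for 1.71% of all genes tested. SLC16A11 had means of 4.88 ± 1.51 and 2.13 ± 0.951 FPKM (SD, n = 5 each), a log2 difference of 0.93 (SE 0.40, unadjusted p = 0.0266, adjusted p = 0.578 by limma). The other 8 members had log2 differences from -0.71 (SLC5A1, SE 0.60) to 0.70 (SLC2A3, SE 0.45). SLC16A10 kept an unadjusted p under 0.05 with each of the 29 samples left out, up to 0.0183. With array weights both passed after adjustment (adjusted p = 0.00973 for SLC16A10 and 0.00423 for SLC16A11 by limma), as did 1090 of all genes. Without array weights, SLC16A11 lost its unadjusted p under 0.05 when HMO 4, LMO 4 or LMO 5 was left out. The log2 differences were then 0.81, 0.76 and 0.87.

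Other measures moved with the same contrast. STAR was at 8.54 to 15.6 FPKM in HMO and 19.8 to 39.0 in LMO, the other granulosa markers summed to 0.408 to 1.09 and 0.475 to 7.82 FPKM, and the mitochondrially encoded share was 0.0222 to 0.0894% and 0.0867 to 1.10%. The summed FPKM was 395190 to 490048 in HMO and 222697 to 436739 in LMO. HSD17B2, a steroid dehydrogenase chosen after its values were seen, was at 12.7 to 27.4 FPKM in 4 of 5 HMO samples and at most 0.101 in LMO. Their part in these results was not tested. Without LMO 2, the log2 difference of SLC16A10 was -0.57.

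In oocytes of small follicles, SLC2A3 and SLC16A11 were lower in HSO than in LSO, again without passing after adjustment. By limma, 2 of 10 members passed an unadjusted p of 0.05, against 4.96% of all genes, and 0 passed after adjustment, against 0% of all genes. The samples of no member were free of overlap, against 2.02% of all genes. SLC2A3 had means of 0.222 ± 0.0758 FPKM in HSO (SD, n = 4) and 2.0 ± 1.78 in LSO (SD, n = 5), a log2 difference of -1.06 (SE 0.48, unadjusted p = 0.0342, adjusted p = 0.924 by limma). SLC16A11 had means of 1.29 ± 0.386 FPKM (SD, n = 4) and 4.81 ± 6.28 (SD, n = 5), a log2 difference of -0.88 (SE 0.42, unadjusted p = 0.0465, adjusted p = 0.924 by limma). For SLC16A11, the value without LSO 1 was -0.37, and the unadjusted call was lost with 13 of the 29 samples left out in turn, 8 of them from other follicle sizes. Its value ranged from -1.16 to -0.37 over these fits. The call was also lost with array weights (-0.58), in a fit on the 2 groups, and with either quantile normalization or median-of-ratios factors. For SLC2A3, leaving out HSO 1, 3 or 4 or LSO 1, 3 or 4 ended it, with the smallest difference, -0.78, also without LSO 1, and so did a pseudocount of 0.1 (-2.04). SLC2A1 had the largest positive log2 difference, 0.56 (SE 0.86). It was -0.27 without HSO 5, without which the HSO mean of 7.04 ± 10.6 FPKM (SD, n = 4) was 1.78 ± 1.70 (SD, n = 3). HSO lacks a replicate 2, a number whose samples were low in SLC2A1, and with the replicate number as a block the difference was 0.31 (SE 0.40). STAR was at 12.5 to 26.2 FPKM in HSO and 4.32 to 28.1 in LSO, whose part was not tested.

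No member was called different between follicle sizes. By limma's F-test of large, medium and small follicles averaged over both populations, 0 of 10 members passed an unadjusted p of 0.05, against 2.02% of all genes, 0% of which passed after adjustment, and the adjusted p was 1.0 for each. SLC16A10 came nearest (F = 3.27, unadjusted p = 0.0531, adjusted p = 1.0 by limma). With array weights its unadjusted p was 0.0228 (adjusted p = 0.962 by limma), where 5.04% of all genes passed 0.05 unadjusted. Its means were 0.747 ± 0.492 FPKM in HLO, 0.487 ± 0.410 in LLO, 0.453 ± 0.0444 in HMO, 1.18 ± 0.174 in LMO, 1.14 ± 0.447 in HSO and 0.995 ± 0.481 in LSO (SD, n = 5, and 4 for HSO). By family, the summed SLC16A level had group means between 6.52 FPKM (LLO) and 11.6 (LSO), the SLC5A level between 3.85 (HMO) and 7.51 (HSO), and the SLC2A level between 3.37 (HLO) and 7.79 (HSO).

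Whether the fertility difference itself depended on follicle size was tested by limma's F-test of the interaction. Unadjusted, 3 of 10 members passed 0.05, against 7.89% of all genes: SLC16A11, SLC16A10 and SLC2A3. None passed after adjustment. SLC16A11 had an F of 4.89 (adjusted p = 0.445 by limma), SLC16A10 an F of 4.88 (adjusted p = 0.445 by limma) and SLC2A3 an F of 4.29 (adjusted p = 0.520 by limma). SLC16A11 was higher in the high fertility population in medium follicles and lower in small ones, with 0.14 (SE 0.40) in large ones (-0.04 without LLO 5). SLC2A3 had negative log2 differences in large and small follicles and a positive one in medium follicles, and its unadjusted call was lost without HMO 1 (F = 3.27). SLC16A10 was lower in HMO than in LMO, with 0.24 (SE 0.20) in large and 0.11 (SE 0.21) in small follicles.

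**Figure D4:**
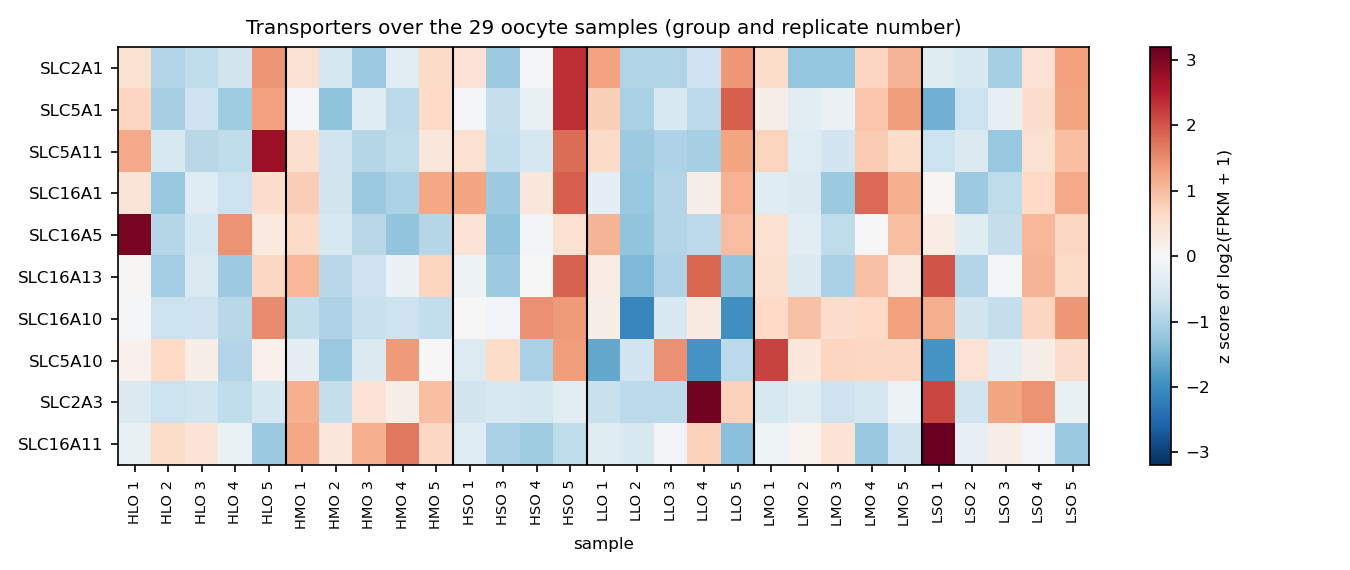
The 10 tested members over the 29 samples, as z scores (distance from the gene's mean over all samples in SDs) of log2(FPKM + 1), with samples in the order of group and replicate number and lines between groups. SLC2A1, SLC5A1, SLC5A11 and SLC16A1 are high together in the fifth replicates and low together in those numbered 2 and 3, whereas SLC16A11 is low in most of the fifth replicates.

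Across samples, several transporters moved together. The values below describe pairs of genes over 29 samples that share libraries and sequencing depth, and no test was made. Spearman's rho was 0.83 between SLC2A1 and SLC5A11 (Pearson's r of log2 values 0.90), 0.81 between SLC5A1 and SLC5A11 (r = 0.86), 0.81 between SLC2A1 and SLC16A1 (r = 0.83) and 0.75 between SLC2A1 and SLC5A1 (r = 0.87). SLC16A11 went the other way, with a rho of -0.58 against SLC5A1 (r = -0.59) and -0.54 against SLC5A11 (r = -0.47). Of the 45 pairs, 14 had a rho above 0.5 and 11 a negative one, with a median of 0.31.

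**Figure D5:**
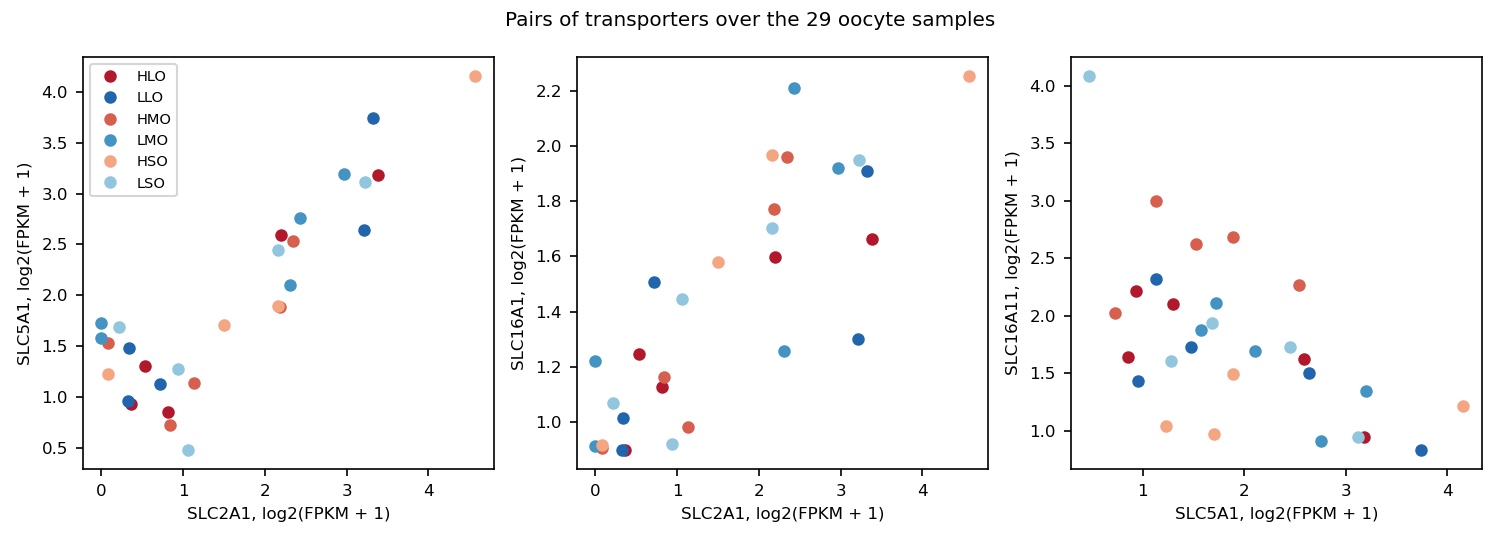
SLC5A1 against SLC2A1, SLC16A1 against SLC2A1 and SLC16A11 against SLC5A1 in the 29 samples, as log2(FPKM + 1), coloured by group. The first 2 pairs rise together (rho 0.75 and 0.81) with all groups mixed along the slope, and the last pair falls (rho -0.58).

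The plot of pairs shows the 6 groups mixed along the slopes of the first 2 pairs. In the third pair, all HMO samples lay at 3.07 to 6.96 FPKM of SLC16A11 and all HSO samples at 0.957 to 1.82. Their SLC5A1 values overlapped. Without the 2 samples farthest from the median of the first gene, r was 0.90 for SLC2A1 with SLC5A11, 0.80 with SLC16A1 and 0.82 with SLC5A1, and -0.52 for SLC16A11 with SLC5A1. After the mean of each replicate number was subtracted, r was 0.68, 0.39, 0.80 and -0.63 for the same pairs. The pair of SLC2A1 and SLC16A1 thus lost most. Measures of the whole library moved with some members: rho with the number of genes above 0.5 FPKM was 0.90 for SLC16A13, 0.80 for SLC16A1 and 0.68 for SLC2A1, but -0.02 for SLC16A11. SLC2A1 had a rho of 0.83 with the first principal component of all tested genes, which held 39.0% of their variance. Their part in these pairs was not tested.

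Transport also depends on chaperones, regulators and the first enzymes that act on the cargo, taken as a list of 33 symbols such as monocarboxylate chaperones, hexokinases, lactate dehydrogenases and mitochondrial pyruvate carrier subunits. The table held 32 of them in 40 genes, 23 of which were tested. The 3 of highest level were AKR1B1, which reduces glucose to sorbitol (162 ± 130 FPKM, SD, n = 29), LDHC, the germ cell lactate dehydrogenase (92.8 ± 79.0), and LDHB (59.6 ± 24.0), all above every transporter. AKR1B1, LDHB and TBC1D1 (described below) share their symbols with further genes listed at or near 0, so their values are uncertain.

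None of the 23 listed genes passed after adjustment in any comparison by limma. Unadjusted, 2 of 23 passed 0.05 averaged over follicle sizes, 2 in large, 1 in medium and 2 in small follicles, 1 for follicle size and 1 for the interaction. The shares of all genes tested were 9.78%, 10.6%, 7.69%, 4.96%, 2.02% and 7.89%, so the listed genes stood near the background, and the values below describe single genes. TBC1D1, which restrains the delivery of glucose carriers to the membrane, had means of 25.7 ± 9.77 FPKM in HLO and 12.4 ± 11.4 in LLO (SD, n = 5 each), a log2 difference of 1.31 (SE 0.48, adjusted p = 0.417 by limma). RSC1A1, a regulator of SLC5A1, had means of 0.778 ± 0.510 FPKM in HLO and 2.50 ± 2.41 in LLO (SD, n = 5 each), a log2 difference of -0.81 (SE 0.39, adjusted p = 0.467 by limma). In small follicles RSC1A1 was at 0.923 ± 0.124 FPKM in HSO (SD, n = 4) and 3.79 ± 3.87 in LSO (SD, n = 5), a log2 difference of -1.0 (SE 0.41, adjusted p = 0.924 by limma). RSC1A1 was also the gene of the interaction (F = 3.81, adjusted p = 0.581 by limma), and it passed the unadjusted limit with TBC1D1 averaged over follicle sizes (log2 differences of -0.47 and 0.62). Both averaged calls were lost with several samples left out in turn (16 and 14 of 29), that of RSC1A1 also without the filter on low values and that of TBC1D1 with array weights (0.41). The call of TBC1D1 in large follicles was lost without LLO 2 (0.97) and with array weights (0.76). The call of RSC1A1 in large follicles was lost without HLO 2, 3 or 4 or LLO 4 or 5 (smallest -0.48, without LLO 4), its call in small follicles without LSO 1 (-0.61), and both in fits on the 2 groups. Its interaction was lost without HMO 1, 3 or 5 or LMO 1, 2 or 3 (F from 2.85).

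Of the sorting proteins, SORT1 was past the unadjusted limit in medium follicles, with 2.77 ± 1.36 FPKM in HMO and 4.83 ± 1.06 in LMO (SD, n = 5 each, log2 difference -0.68, SE 0.23, adjusted p = 0.392 by limma). The unadjusted call was lost with quantile normalization (-0.61), while with array weights, which called 1090 of all genes, the adjusted p was 0.0117 by limma, the lowest of its alternatives (up to 0.906). STXBP4, an insulin-regulated partner of vesicle fusion, was at 0.702 ± 0.447 FPKM in HSO (SD, n = 4) and 0.247 ± 0.270 in LSO (SD, n = 5), a log2 difference of 0.44 (SE 0.21, adjusted p = 0.924 by limma). Its unadjusted call was lost without HSO 5 (0.27) or LSO 1, 2 or 3 (from 0.38), with array weights (0.32) and in a fit on the 2 groups. HKDC1, a hexokinase, passed the unadjusted limit for follicle size (F = 4.70, adjusted p = 1.0 by limma), with group means from 3.15 FPKM in HLO to 7.76 in LSO, but not with quantile normalization (F = 3.10).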

How the data were processed

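RNA-seq of pooled goat oocytes was analysed in 29 samples. The authors enriched polyadenylated RNA, kept uniquely matched reads with few mismatches and dropped duplicates (picard). The FPKM they deposited, as 1 table of genes by samples, came from Cufflinks with Ensembl gene models; the aligner and genome build are not given in the sources used here. FPKM hold no read counts, so depth per sample is not known from the table and no counting interval is given. Fold changes are on the log2(FPKM + 1) scale, which understates those of low genes. Columns were matched to samples by name, and 1 column that matched no sample was not used. No 2 samples held identical values.

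Genes over 0.5 FPKM in at least 4 of 29 samples (9692) were fitted with limma 3.58.1 in R 4.3.3: 1 fit of 6 group means on log2(FPKM + 1) with a trend and Benjamini-Hochberg adjustment over all tested genes. The study's methods name no test for differences between groups. Every tested member is named, with values per sample for the 3 highest of each family and for each member with an unadjusted p under 0.05 in any comparison. Of the list of partners and enzymes, those with such a p and the 3 of highest level are named. The members and lists were chosen with earlier results of these data known. The values of 1 member below the limit are not reported here. The fit was tested on simulated data. RefSeq symbols (assembly ARS1.2) were used for overlapping genes: 9 of the 10 tested members matched, and 3 overlapped another gene. Alternatives were other pseudocounts (0.5 and 0.1), filters and scalings, array weights, a replicate block, fits on 2 groups and each sample left out. Python 3.11.15, pandas 2.3.3 and matplotlib 3.10.9 were used beside R.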

Additional observations from a re-analysis of the deposited data

Results flagged for a closer look

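In 8 of 60 groups of values (10 members in 6 groups), the highest sample stood apart from the others of its group by Dixon's test, and in no group did the lowest. Over all 9692 genes tested, the highest sample stood apart in 9.82% of groups and the lowest in 0.660%. Chance in normally distributed values gives about 5% for the highest and the lowest together. HSO 5 stood apart for SLC2A1 (22.8 FPKM, next 3.46) and SLC5A1 (16.9, next 2.71). LSO 1 stood apart for SLC16A11 (15.98 FPKM, next 2.82). LLO 4 stood apart for SLC2A3 (8.44 FPKM, next 1.46) and SLC16A13 (6.42, next 1.75). For SLC16A10 it was HLO 5 (1.60 FPKM, next 0.740), and for SLC5A10 it was LLO 3 (1.36, next 0.386) and LMO 1 (1.83, next 0.938). Without LMO 1 the LMO mean of SLC5A10 was 0.894 ± 0.0777 FPKM (SD, n = 4), against 1.08 ± 0.425 (SD, n = 5) with it.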

How the results depend on the processing

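No log2 difference past its unadjusted limit turned its direction under the alternatives run, and the F-tests have no direction to turn. Of the differences named without such a call, SLC5A11 averaged over follicle sizes turned from 0.08 to -0.19 with array weights (about 0 without HLO 5 or HSO 5), SLC2A1 in small follicles to -0.27 without HSO 5 and SLC16A11 in large follicles to -0.04 without LLO 5. Without the filter on low values (17172 genes and 32 members), members past an unadjusted p of 0.05 numbered 1 averaged over follicle sizes, 1 in large, 5 in medium and 4 in small follicles, 1 for follicle size and 6 for the interaction, against 8.02%, 8.57%, 7.24%, 5.56%, 2.43% and 6.97% of all genes. With array weights they numbered 1 averaged, 8 in medium, 1 in small follicles and 1 for follicle size. The shares of all genes under these weights were 23.2%, 33.7%, 7.97% and 5.04%. After adjustment 3 members passed in medium follicles (SLC16A11, SLC16A10 and SLC5A1), beside 1090 of all genes. For the interaction 1 member passed after adjustment, beside 231 of all genes. The median of all genes in medium follicles was -0.25 with these weights, against -0.06. Of all genes past the unadjusted limit in medium follicles, 372 of 745 were higher in HMO, but 705 of 3269 with array weights and 611 of 816 with median-of-ratios factors; averaged over follicle sizes it was 333 of 948, 505 of 2252 and 589 of 992. In small follicles 1 member passed with a pseudocount of 0.1, median-of-ratios factors, quantile normalization or a fit on the 2 groups. For follicle size 1 passed with a pseudocount of 0.5 or 0.1. The causes were not tested. With each sample left out, the unadjusted counts ranged from 0 to 0 averaged, 0 to 2 in large, 1 to 3 in medium and 0 to 2 in small follicles, 0 to 1 for follicle size and 2 to 4 for the interaction, and the adjusted counts stayed at 0. Over all alternatives the adjusted p of SLC16A10 in medium follicles ranged from 0.00973 to 0.834.

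The labels do not say what the replicate numbers stand for, and they were not used to pair samples because not every same-numbered pair deviated together. Of 70 such pairs, 55 had deviations correlated above 0.1 (median 0.47, from -0.57; median -0.18 for 280 pairs of different numbers), each pair of the numbers 2, 3 and 5 among them, and 20 of 29 samples correlated best with their own number. With the number as a replicate block, 2 members passed an unadjusted p of 0.05 in medium follicles, 2 in small follicles and 3 for the interaction, 0 after adjustment, and the block changed no other call of a member. The shares of all genes rose with it to 13.7%, 8.29% and 14.5%, from 7.69%, 4.96% and 7.89%, and 70 genes passed after adjustment for the interaction. In the fit without the block, differences between the numbers stayed in the spread. In large follicles the block narrowed the standard error of SLC2A1 from 0.81 to 0.38, while that of SLC5A10 stayed at 0.23.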

Other observations

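Members differed between the replicate numbers of the labels about as often as all genes did. In a test added after the data were seen, limma's F-test of the replicate number beside the 6 groups called 6 of 10 members at an adjusted p under 0.05, against 50.5% of all genes tested: SLC2A1, SLC5A1, SLC5A11, SLC16A1, SLC16A13 and SLC16A5. SLC2A1, the basal glucose carrier, ranged from 4.10 to 22.8 FPKM in the 6 samples numbered 5, from 0 to 0.448 in the 6 numbered 3 and from 0 to 0.917 in the 5 numbered 2. SLC5A1 ranged from 4.80 to 16.9 FPKM in the samples numbered 5 and from 0.653 to 1.99 in those numbered 2. The number of genes above 0.5 FPKM was 7699 to 8452 in the samples numbered 5 and 6646 to 7527 in those numbered 2, and its part in this result was not tested. The labels do not say what the numbers stand for.

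HSD17B2, a steroid dehydrogenase that oxidises estradiol, was high in the samples with most SLC2A3. It was chosen after its values were seen. It was at 7.44 to 41.7 FPKM in 8 samples (HMO 1, 3, 4 and 5, LLO 4 and LSO 1, 3 and 4) and at most 0.143 FPKM in the other 21. These 8 samples were among the 9 with the highest SLC2A3 values, the exception being LLO 5 at 1.46 FPKM of SLC2A3 and 0.0254 of HSD17B2. Over the 29 samples, rho with HSD17B2 was 0.62 for SLC2A3 (r of log2 values 0.87), 0.66 for SLC16A13 (r = 0.52) and 0.40 for SLC16A11 (r = 0.68), a description of samples that share libraries and depth.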
